A study of Mus musculus with 6 samples.

Results

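Adrenergic receptors, the receptor kinase Grk5 and the cyclic nucleotide phosphodiesterases of the heart were examined in mice that carry a human mitochondrial progesterone receptor, PR-M. The genes were listed by symbol as Adrb1, Adra1a, Adra1b, Grk5, Pde3a, Pde4b, Pde4d, Pde5a and Pde2a. A probe set belonged to the group when the platform annotation gave it exactly 1 gene symbol and that symbol was on the list. This rule found 20 probe sets of 7 genes among 45037 probe sets in all. The rule found no probe set for Adrb1 and Adra1a, and these 2 of the 9 genes were not analysed here.

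Each of 6 heart RNA samples was read on 1 Affymetrix mouse expression array. The tissue was the apex of the ventricles. The labels name 3 samples as PR-M expressing and 3 as PR-M non-expressing. Both groups received 2.5 mg of progesterone in oil under the skin for 19 to 21 days, so every comparison is between PR-M groups that share the hormone, and no group without the hormone was analysed here. The labels give no promoter, line, strain, age or sex for the transgene or the mice, and nothing in them ties each array to an animal of its own. P-values therefore measure the spread between these samples, which may be technical.

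Noradrenaline and adrenaline act on heart muscle through beta receptors, which raise cyclic AMP through the stimulatory G protein and adenylyl cyclase, and through alpha-1 receptors, which act through phospholipase C. Cyclic AMP activates protein kinase A, which phosphorylates calcium handling and sarcomere proteins and raises the rate and force of the beat. Receptor kinases such as GRK5 phosphorylate occupied receptors and uncouple them from their G proteins. Phosphodiesterases break cyclic AMP and cyclic GMP down and confine them to small compartments of the cell.

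Values are on the log2 scale in which the authors deposited them, and every difference is expressing minus non-expressing on that scale. "With PR-M" and "without it" stand for the groups labelled expressing and non-expressing, and the labels do not say how that status was established. Array medians lay between 5.77 and 5.78, and array pairs correlated at r of 0.992 to 0.997 over the 45037 probe sets. Of 3 measures of the RNA 2 were apart between the groups. The mean of the 18S ribosomal control probe sets was 8.31 ± 0.22 with PR-M and 9.88 ± 0.38 without it (SD, n = 3 each). The beta-actin control, 3′ end minus 5′ end, gave 1.23 ± 0.05 with PR-M and 1.38 ± 0.07 without it. Each of these had a two-sided exact permutation p of 0.1, which 3 against 3 arrays cannot go below. The same measure of Gapdh overlapped, at 0.17 ± 0.06 and 0.25 ± 0.07 (exact permutation p = 0.3, two-sided). Their part in the differences given here was not tested. Of 6 heart muscle markers, Myh6, Myl2, Myl3, Tnni3, Actc1 and Tnnt2, none passed the test. Their summed signal (log2) was 17.10 to 17.14 with PR-M and 17.11 to 17.12 without it. These markers all lay near the highest value of any array, so their likeness does not show equal muscle content. Of 4 atrial markers 3 passed and were higher with PR-M (Sln, Myl4 and Myl7, not Nppa), and the summed atrial signal was 11.2 to 13.1 against 9.22 to 10.9. The part of atrial tissue in the differences given here was not tested. In such whole-tissue samples fewer cells of a type and less RNA per cell cannot be told apart. Titles of the expressing samples share 1 prefix, non-expressing replicate 1 has its own and replicates 2 and 3 share another. No prefix holds both groups, so prefix and group cannot be told apart.

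None of the 20 probe sets passed the test between the groups. The test was limma with Benjamini-Hochberg adjustment over all 45037 probe sets and a threshold of 0.05, at which 6 probe sets passed (0.0133%). Adjusted p of the members ran from 0.190 for Pde4d to 0.994 for Pde4b. At an unadjusted p under 0.05 there were 5 of the 20 (25.0%), against 12.2% of all probe sets. These were 3 higher in the expressing arrays, of Adra1b, Pde4b and Pde4d, where the background is 5.86%, and 2 lower, of Grk5 and Pde5a, where it is 6.37%. In 6 of the 20 probe sets (30.0%) the groups were fully apart, with no overlap of their arrays, against 18.6% of all. The median difference was -0.05 over the 20 probe sets and -0.02 over all. The 95% intervals of all 20 lay between -0.62 and 0.84, so none reached a 2-fold difference (1 on the log2 scale) in either direction. These intervals hold for 1 probe set at a time.

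**Figure D1:**
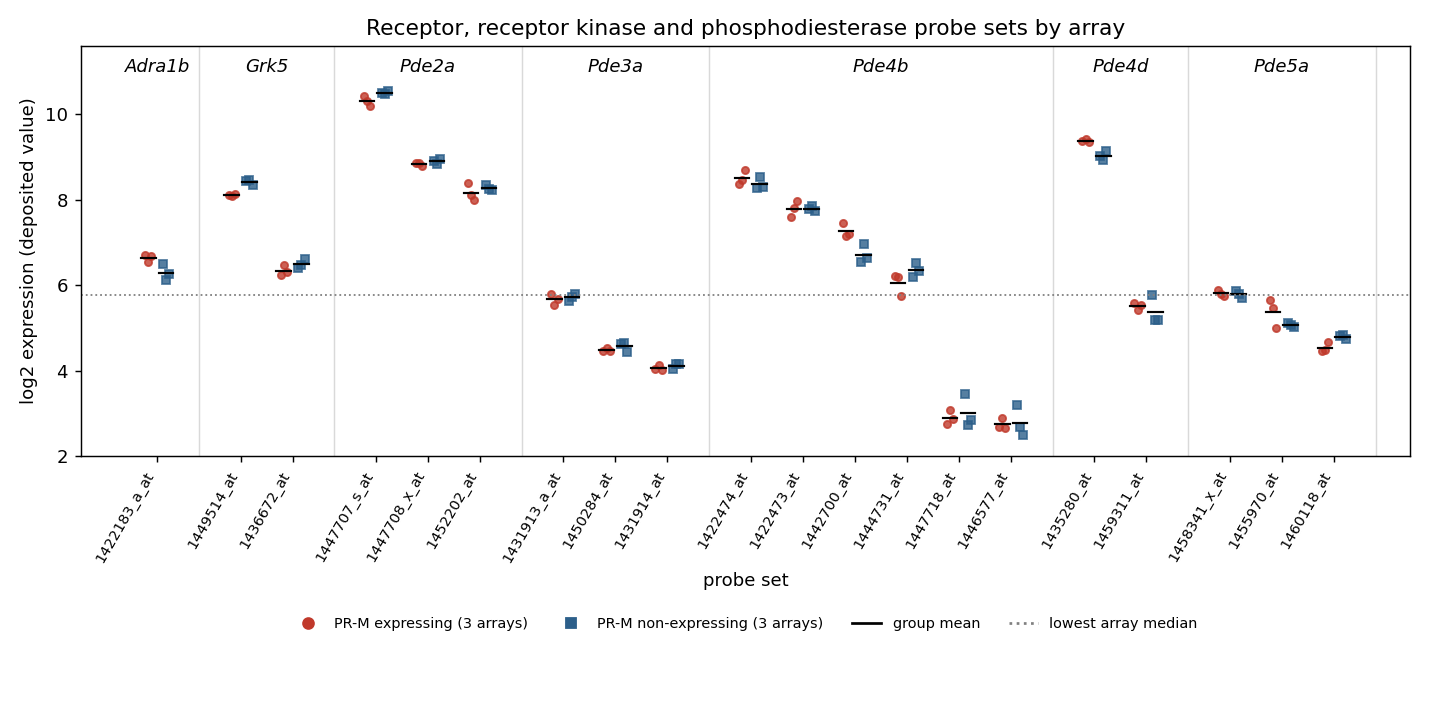
Deposited log2 expression (vertical axis) of the 20 probe sets (horizontal axis, grouped by gene and ordered by mean), with 1 point for each array, red circles for PR-M expressing, blue squares for PR-M non-expressing, short black lines for group means (n = 3 each) and a dotted line at the lowest array median. Most pairs of groups lie close together beside the distances between probe sets, and 7 probe sets lie below the median line on all 6 arrays.

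The receptor Adra1b, the alpha-1B adrenergic receptor, which couples to phospholipase C, is read by 1 probe set, 1422183_a_at. The gene lies on chromosome 11. The 3 expressing arrays read 6.70, 6.54 and 6.68, and the 3 non-expressing arrays 6.50, 6.13 and 6.26. Every expressing array was above every non-expressing array, but non-expressing replicate 1 came within 0.04 of the lowest expressing one. The means were 6.64 ± 0.09 and 6.30 ± 0.19 (SD, n = 3 each). The difference was 0.34 (SE 0.11, 95% interval 0.10 to 0.59), a 1.27-fold difference, and did not pass (limma adjusted p 0.288). Without non-expressing replicate 1 it was 0.44, and without non-expressing replicate 2 it was 0.26.

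Grk5, a G protein-coupled receptor kinase abundant in heart, is read by 2 probe sets and lies on chromosome 19. On 1449514_at the expressing arrays read 8.12, 8.08 and 8.13 and the non-expressing arrays 8.44, 8.46 and 8.35. The groups were parted by 0.22, and the 3 expressing arrays spread by little, with an SD of 0.03 against 0.06. The difference of -0.31 (SE 0.07, 95% interval -0.48 to -0.14), a 1.24-fold difference, did not pass (limma adjusted p 0.195). The dimmer probe set 1436672_at read 6.23, 6.47 and 6.30 with PR-M and 6.40, 6.48 and 6.60 without it. Its groups overlapped, and its difference was -0.16 (SE 0.09, adjusted p 0.520), or -0.23 to -0.11 with 1 array left out. Both Grk5 probe sets thus had lower means in the expressing arrays, and neither passed.

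Pde4d is one of the PDE4 enzymes, which hydrolyse cyclic AMP alone, and its product is known to sit near the ryanodine receptor and the calcium pump of heart muscle. The gene lies on chromosome 13. The bright probe set 1435280_at read 9.37, 9.43 and 9.36 in the expressing arrays and 9.03, 8.93 and 9.14 in the non-expressing arrays. The groups were parted by 0.22, with means of 9.39 ± 0.04 and 9.03 ± 0.11 (SD, n = 3 each). The difference was 0.35 (SE 0.08, 95% interval 0.16 to 0.54), a 1.28-fold difference. It had the lowest adjusted p of the 20 (0.190, limma) and did not pass. Probe set 1459311_at lay below the array median on all 6 arrays. It read 5.58, 5.43 and 5.53 with PR-M and 5.77, 5.18 and 5.19 without it. Here non-expressing replicate 1 was the highest of all 6 arrays, and replicates 2 and 3 were the lowest. The difference was 0.13 (SE 0.15, adjusted p 0.765). It was 0.33 without non-expressing replicate 1 (adjusted p 0.178) and 0.03 without replicate 2.

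Pde4b, a second PDE4 enzyme, is known to limit the beta-adrenergic response of the calcium channel in mouse heart. It lies on chromosome 4 and has 6 probe sets, which did not run together. The brightest, 1422474_at, read 8.37, 8.46 and 8.69 with PR-M and 8.27, 8.54 and 8.30 without it. The next, 1422473_at, read 7.59, 7.80 and 7.97 against 7.78, 7.84 and 7.73. Both overlapped between groups, with differences of 0.13 (SE 0.11, adjusted p 0.664) and 0.003 (SE 0.11, adjusted p 0.994). With 1 array left out that of 1422474_at ran from 0.04 (expressing replicate 3 left out) to 0.22 (non-expressing replicate 2 left out).

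A further pair of Pde4b probe sets had differences of opposite sign. Probe set 1442700_at read 7.45, 7.14 and 7.20 in the expressing arrays and 6.55, 6.97 and 6.64 in the non-expressing arrays. Its groups did not overlap, and its difference of 0.54 (SE 0.13, 95% interval 0.25 to 0.84), a 1.46-fold difference, was the widest among the 20 and did not pass (limma adjusted p 0.190). Probe set 1444731_at read 6.21, 6.20 and 5.75 against 6.20, 6.52 and 6.33, with a difference of -0.30 (SE 0.14, adjusted p 0.439). Its expressing replicate 3 was the lowest array, and the other 5 arrays overlapped. Without that array the difference was -0.15 (adjusted p 0.670).

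Set against 1422474_at within each array, 1442700_at was -0.92, -1.31 and -1.50 with PR-M and -1.73, -1.57 and -1.66 without it, a shift of 0.41 between group means without overlap. For 1444731_at the same within-array value was -2.16, -2.26 and -2.94 against -2.08, -2.02 and -1.97, a shift of -0.43 without overlap. Expressing replicate 3 was the lowest array on 1444731_at and the highest on 1422474_at, so this shift leans on it. The same within-array values of 1422473_at, 1447718_at and 1446577_at overlapped between the groups. Non-overlap was not particular to Pde4b. Set against the brightest probe set of their gene, Pde2a 1447708_x_at (shift 0.13) and Pde5a 1460118_at (shift -0.26) did not overlap either. Those of the remaining member probe sets overlapped, and no share over all genes was computed for such values. These within-array values were not tested, and the labels and tables do not say which Pde4b transcripts each probe set reads. The 2 dimmest probe sets, 1447718_at and 1446577_at, lay between 2.48 and 3.45 on all arrays, far below the array median, with differences of -0.11 and -0.04. Non-expressing replicate 1 was the highest array in both.

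RefSeq (build GRCm38.p6) lists 4 starts for Pde4b, and they were looked at because the probe sets of the gene did not run together. Of their windows, only those with a match to a motif named below are shown. Each window holds 250 bases before a start and 50 after it, on the plus strand, 5′ to 3′. Capitals mark matches on either strand to TGACG, the core of the cyclic AMP response element, and to AGAACA, a half-site of the element bound by progesterone and glucocorticoid receptors. The single listed window of Pde4d is shown beside them.
Pde4b, chr4:102421305-102421604: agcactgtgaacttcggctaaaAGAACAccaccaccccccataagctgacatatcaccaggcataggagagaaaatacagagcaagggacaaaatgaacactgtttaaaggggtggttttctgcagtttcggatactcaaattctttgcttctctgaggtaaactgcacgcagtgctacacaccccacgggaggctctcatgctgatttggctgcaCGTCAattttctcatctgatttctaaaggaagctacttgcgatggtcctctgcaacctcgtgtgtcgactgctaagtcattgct
Pde4b, chr4:102589593-102589892: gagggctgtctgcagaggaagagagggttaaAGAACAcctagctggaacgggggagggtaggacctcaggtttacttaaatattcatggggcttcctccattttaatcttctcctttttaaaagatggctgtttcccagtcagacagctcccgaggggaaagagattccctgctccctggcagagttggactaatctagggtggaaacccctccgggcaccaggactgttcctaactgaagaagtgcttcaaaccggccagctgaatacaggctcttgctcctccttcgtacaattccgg
Pde4d, chr13:108653927-108654226: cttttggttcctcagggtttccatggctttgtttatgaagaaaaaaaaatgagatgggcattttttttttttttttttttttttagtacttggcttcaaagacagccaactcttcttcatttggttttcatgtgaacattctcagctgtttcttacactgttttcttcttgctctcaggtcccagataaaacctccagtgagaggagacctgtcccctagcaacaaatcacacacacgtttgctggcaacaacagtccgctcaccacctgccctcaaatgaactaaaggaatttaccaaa

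The first Pde4b window holds 1 match to each motif and the second 1 match to AGAACA. The other 2 Pde4b windows and that of Pde4d hold neither. In all, 14 windows of 6 of the 7 genes are listed, and 2 of them hold TGACG and 4 hold AGAACA. The matches outside Pde4b all lie in windows of Pde2a, which are not shown. Among all 32851 windows 20.8% hold TGACG and 19.0% hold AGAACA. A match is a run of letters and not a shown site, and no expression value was compared with it. Binding of PR-M to either motif was not tested.

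Pde2a, an enzyme that is activated by cyclic GMP and hydrolyses cyclic AMP and cyclic GMP, has 3 probe sets and lies on chromosome 7. The brightest, 1447707_s_at, read 10.43, 10.31 and 10.19 in the expressing arrays and 10.50, 10.48 and 10.55 in the non-expressing arrays. The expressing arrays were all lower, by at least 0.05, and more spread, with an SD of 0.12 against 0.03. The difference of -0.20 (SE 0.09, 95% interval -0.39 to 0.0002), a 1.14-fold difference, did not pass (limma adjusted p 0.409). It was -0.14 without expressing replicate 3.

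The other Pde2a probe sets overlapped between groups. Probe set 1447708_x_at read 8.85, 8.85 and 8.78 against 8.90, 8.84 and 8.96, with a difference of -0.07 (adjusted p 0.748), or -0.10 to -0.04 with 1 array left out. Probe set 1452202_at read 8.39, 8.10 and 8.00 against 8.35, 8.25 and 8.23, with a difference of -0.11 (adjusted p 0.705). Its expressing replicate 1 was the highest of the 6 arrays and expressing replicate 3 the lowest. Without the first of these the difference was -0.23, and without the second it was -0.03. All 3 Pde2a probe sets had lower means with PR-M, and none passed.

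Pde3a, which hydrolyses cyclic AMP and is inhibited by cyclic GMP and by drugs such as milrinone, was read by probe sets with dim signal. The gene lies on chromosome 6. Its brightest probe set, 1431913_a_at, read 5.79, 5.55 and 5.67 with PR-M and 5.64, 5.73 and 5.79 without it, below the array median on 4 of 6. Probe set 1450284_at read 4.46, 4.54 and 4.47 against 4.62, 4.65 and 4.43. Probe set 1431914_at read 4.05, 4.13 and 4.03 against 4.03, 4.15 and 4.15. All 3 overlapped between the groups, with differences of -0.05 (limma adjusted p 0.849), -0.08 (0.743) and -0.04 (0.857) in that order. The 95% intervals lay between -0.28 and 0.15. With 1 array left out the differences ran from -0.11 to 0.01 for 1431913_a_at, -0.15 to -0.04 for 1450284_at and -0.09 to -0.02 for 1431914_at. The 2 dimmer probe sets lay below the array median on all 6 arrays.

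Pde5a, which hydrolyses cyclic GMP and is the target of sildenafil, lies on chromosome 3, and its 3 probe sets gave differences of unlike size and sign. The brightest, 1458341_x_at, read 5.88, 5.80 and 5.74 with PR-M and 5.88, 5.80 and 5.71 without it, with a difference of 0.01 (SE 0.08, adjusted p 0.969). Probe set 1455970_at read 5.66, 5.46 and 4.99 against 5.12, 5.07 and 5.03. Its expressing replicates 1 and 2 were the highest arrays and expressing replicate 3 the lowest of all 6. The difference was 0.30 (SE 0.15, 95% interval -0.05 to 0.65, adjusted p 0.470), 0.16 without expressing replicate 1 and 0.49 without expressing replicate 3.

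Probe set 1460118_at of Pde5a read 4.47, 4.48 and 4.66 in the expressing arrays and 4.81, 4.82 and 4.74 in the non-expressing arrays. The expressing arrays were all lower, by at least 0.07. The difference of -0.25 (SE 0.08, 95% interval -0.45 to -0.06) did not pass (limma adjusted p 0.306). Both 1455970_at and 1460118_at lay below the array median on all 6 arrays, so these differences concern dim values.

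**Figure D2:**
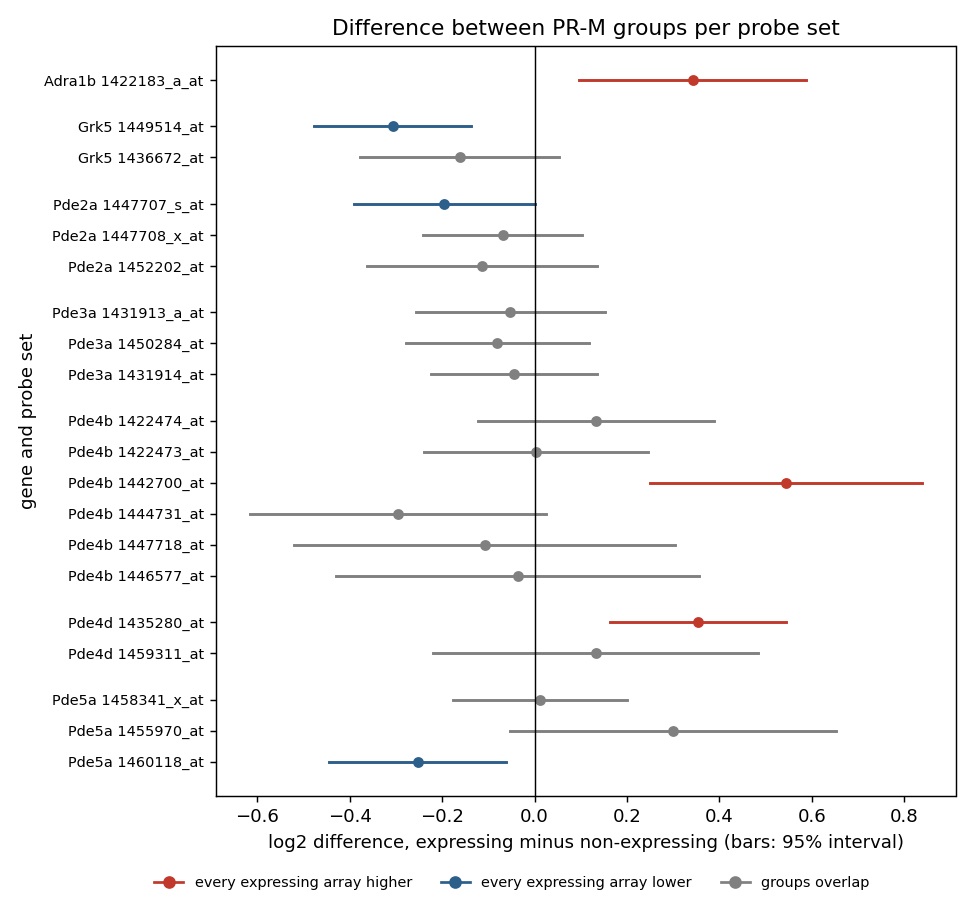
Log2 difference, expressing minus non-expressing (horizontal axis), of the 20 probe sets (vertical axis, by gene), with 95% intervals from limma as bars (n = 3 arrays each). Red marks the 3 probe sets with every expressing array higher and blue the 3 with every expressing array lower, and the Pde4b probe sets lie between -0.30 and 0.54.

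With 1 array left out in turn, the 6 probe sets whose groups did not overlap had differences from 0.26 to 0.44 for Adra1b, -0.34 to -0.29 for Grk5 and -0.26 to -0.14 for Pde2a. They ran from 0.45 to 0.67 for Pde4b 1442700_at, 0.30 to 0.41 for Pde4d and -0.32 to -0.22 for Pde5a. Since these groups do not overlap, the sign cannot turn when an array is left out, and it is no measure of stability. No member passed in any of these fits, and the lowest adjusted p among them (limma) was 0.137, for Adra1b.

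**Figure D3:**
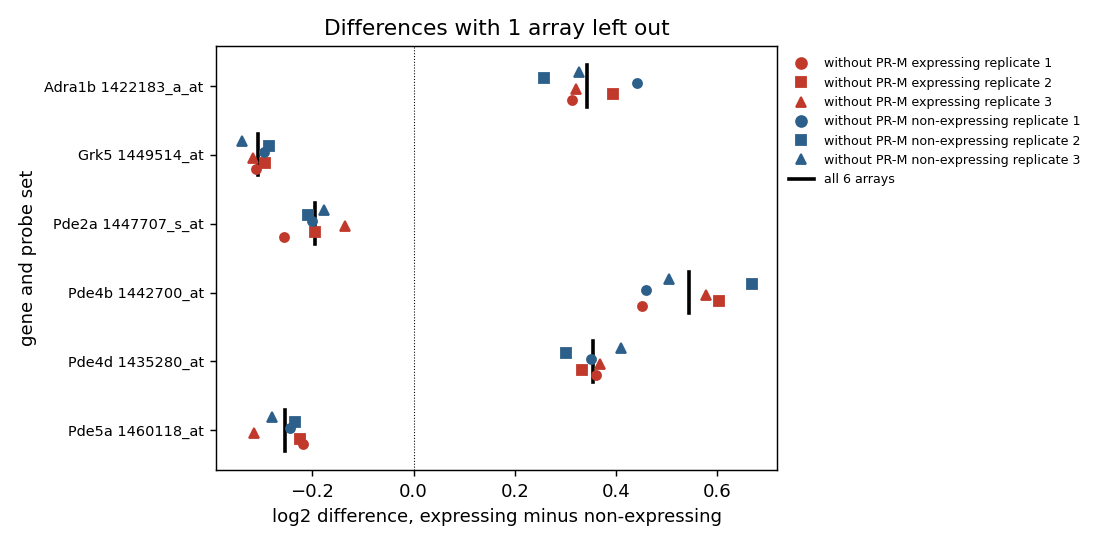
Log2 difference, expressing minus non-expressing (horizontal axis), of the 6 probe sets whose groups did not overlap (vertical axis), with all 6 arrays (black line) and with 1 array left out (points, colour for the group and shape for the replicate left out). The points of Grk5 span -0.34 to -0.29, and those of Pde4b span 0.45 to 0.67.

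Over the 6 arrays the brightest probe sets of Grk5 and Pde4d ran against each other, with a Pearson r of -0.99 (n = 6). That of Adra1b had r of 0.80 with Pde4d and -0.78 with Grk5. Pde2a had r of 0.74 with Grk5 and -0.80 with Pde4b, while Pde5a had r between -0.40 and 0.33 with every other member. These values describe 6 arrays in 2 groups, and the group difference of each gene is part of them. Among the brightest probe sets of 18192 other genes the most alike to Adra1b was that of Huwe1 (r = 0.998), to Grk5 Gkap1 (0.995), to Pde4d Cdk10 (0.993) and to Pde4b Ppfia2 (0.992). For Pde2a it was Piwil1 (0.998), for Pde3a Ncoa7 (0.992) and for Pde5a BC064078 (0.991). Each is the highest of 18192 values over 6 arrays and is given as a description. Ppfia2, Piwil1, Ncoa7 and BC064078 read below the lowest array median (5.77) on all 6 arrays. The Pde3a and Pde5a probe sets compared ranged over only 0.25 and 0.17. These likenesses therefore concern dim or little varying values.

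The other genes of the pathway were read from 12 lists, each gene by its brightest probe set, with p adjusted over 18193 genes. Of 97 measured genes of 109 listed none passed in limma, where 12 of all genes did (0.066%). At an unadjusted p under 0.05 there were 14 of the 97 (14.4%), 8 higher and 6 lower, against 11.4% of all genes. The median difference of the 97 genes was 0.03, against -0.02 over all genes.

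Ddc, the aromatic amino acid decarboxylase of catecholamine synthesis, had the widest difference among the 97. With PR-M it read 6.44, 6.45 and 6.73, and without it 5.76, 5.31 and 5.74. The groups were parted by 0.67. The difference was 0.94 (SE 0.14), a 1.91-fold difference, and the adjusted p was 0.0881. The adjusted p was 0.0489 with an intensity trend and robust prior and 0.0498 with array weights, the only alternatives that brought it under 0.05, and it ran from 0.0489 to 0.314 over all alternatives. All 3 non-expressing arrays lay below their array medians on this probe set, so the fold is set against dim values. The second probe set of Ddc lay below the array median on all 6 arrays, overlapped between groups and differed by 0.31 (adjusted p over all probe sets 0.443). Of the enzymes before and after it in the pathway, Th, tyrosine hydroxylase, lay below the array median on all 6 arrays and differed by 0.09, and Dbh, dopamine beta-hydroxylase, by 0.02. All 7 measured genes of the catecholamine list had differences above 0, with a median of 0.05, where 8009 of all 18193 genes did. For Th, Dbh, Pnmt, Slc6a2 and Maoa these were only 0.01 to 0.09. Maob, a monoamine oxidase, differed by 0.35 (SE 0.08, adjusted p 0.208) without overlap.

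Of 15 other phosphodiesterase genes none passed, 9 had differences above and 6 below 0, and the median was 0.04. Pde7a, which hydrolyses cyclic AMP, read 8.08, 8.20 and 8.63 with PR-M and 9.26, 8.72 and 8.92 without it. The difference was -0.66 (SE 0.17, adjusted p 0.269), a 1.58-fold difference without overlap. All 7 probe sets of Pde7a had lower means in the expressing arrays, from -0.66 to -0.27, and 4 did not overlap. The dimmest of these 4 lay below the array median on all 6 arrays. Among all probe sets 18.6% did not overlap. The Pde7a probe sets read the same gene on the same arrays and are not independent of each other. Pde8b, a further cyclic AMP phosphodiesterase, differed by -0.28 (SE 0.09, adjusted p 0.337). Its 2 probe sets both had lower means in the expressing arrays.

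Among 10 genes of G proteins and their regulators none passed, and the list median was 0.07. Gnai1, an inhibitory G protein subunit that lowers cyclic AMP synthesis, read 8.52, 8.23 and 8.62 against 8.26, 7.31 and 7.84. Its groups overlapped through non-expressing replicate 1, and the difference was 0.65 (SE 0.22, adjusted p 0.350). All 3 probe sets of Gnai1 had higher means in the expressing arrays, from 0.45 to 0.65. Rgs2, which quickens the shut-off of G protein signals, differed by 0.24 (adjusted p 0.438), with 1 of 4 probe sets below 0. Of 9 adenylyl cyclases none passed, with a median of 0.01. Adcy8, whose probe set was dim on all 6 arrays, differed by -0.21 (adjusted p 0.462). Adcy3 differed by -0.16 (adjusted p 0.520), and 1 of its 4 probe sets differed the other way.

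Of 5 receptor kinases and arrestins none passed, with a median of -0.08. Grk3, a kinase of the same family as Grk5, differed by 0.22 (SE 0.08, adjusted p 0.382) on the other side from Grk5, and Arrb2, beta-arrestin-2, by -0.12 (adjusted p 0.620). Of the other adrenergic receptors 1 of 6 was measured, Adra2c, an alpha-2 receptor, with a difference of -0.04 (adjusted p 0.918). All 4 probe sets of Adra2c had lower means in the expressing arrays, down to -0.26.

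Of 9 genes of protein kinase A and its inhibitors none passed, and the median was 0.01. Prkacb, a catalytic subunit, differed by 0.25 (SE 0.08, adjusted p 0.349), while its 2 dimmer probe sets differed in the other direction, at most by -0.42. Pkib, an inhibitor of the kinase whose probe sets were dim here, differed by -0.50 (adjusted p 0.287), and its other probe set by 0.28. Of 9 anchoring protein genes none passed, with a median of 0.07. Akap9, which ties the kinase to the potassium channel KCNQ1, differed by 0.42 (SE 0.10, adjusted p 0.212), but 2 of its 6 probe sets had differences below 0. Akap12 differed by -0.14 (adjusted p 0.523).

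Among 9 substrates of the kinase none passed, with a median of -0.04. Ppp1r1a, an inhibitor of protein phosphatase 1, differed by -0.32 (adjusted p 0.428) and Crem, a cyclic AMP responsive transcription factor, by -0.23 (adjusted p 0.459). Of 4 other cyclic AMP effectors none passed, and Popdc3 differed by -0.25 (adjusted p 0.436) and Popdc2 by 0.06 (adjusted p 0.895). Both are membrane proteins of the Popeye family that bind cyclic AMP.

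Of 10 genes of cyclic GMP synthesis and action none passed, with a median of 0.03. Npr1, a receptor for natriuretic peptides whose probe set was dim here, differed by -0.31 (adjusted p 0.381). Prkg1, the cyclic GMP-dependent kinase, differed by 0.17 (adjusted p 0.508), with 1 of 2 probe sets below 0. Of 9 genes of alpha-1 receptor signalling none passed, with a median of 0.07. Plcb1, a phospholipase C, differed by -0.23 (adjusted p 0.459), but 3 of its 5 probe sets had differences above 0, up to 0.15. Itpr2, an inositol trisphosphate receptor, differed by 0.35 (adjusted p 0.466), though 2 of 6 probe sets of Itpr2 had differences below 0.

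**Figure D4:**
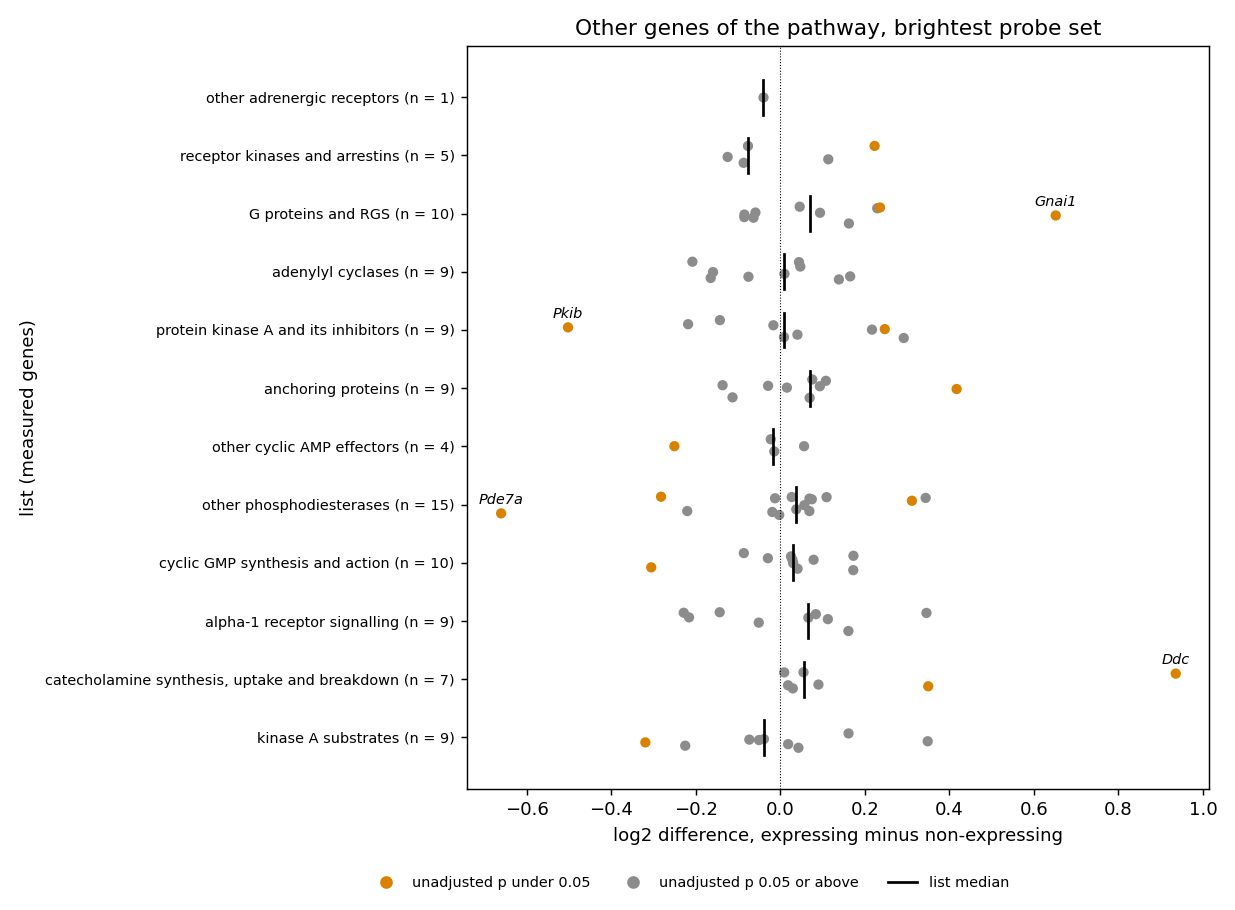
Log2 difference, expressing minus non-expressing (horizontal axis), of 97 other genes of the pathway in 12 lists (vertical axis, measured genes in brackets), 1 point for each gene by its brightest probe set, with black lines for list medians and orange for an unadjusted p under 0.05. List medians lie between -0.08 and 0.07, and Ddc at 0.94 and Pde7a at -0.66 stand farthest out, neither of which passed the adjusted test.

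Markers of other cells that carry these genes were read in the same arrays. Over all 18193 genes, 8009 had differences above 0 and 19.0% did not overlap between the groups. No such share was computed for summed signals. Of 4 smooth muscle markers, Acta2, Myh11, Tagln and Cnn1, none passed, 4 had differences above 0, and their summed signal (log2) was 10.60 to 11.20 with PR-M and 10.01 to 10.91 without it. Of 5 fibroblast markers, Col1a1, Dcn, Pdgfra, Tcf21 and Lum, none passed and 5 had differences above 0, with summed signals of 13.8 to 13.9 and 13.6 to 13.8 and no overlap. Of 5 endothelial markers 4 had differences above 0, and of 4 macrophage and 3 measured adipocyte markers 2 each did. The summed signals overlapped in all 3 lists, and no marker in them passed. Single genes could still be apart. The endothelial markers Pecam1 (0.20) and Emcn (0.29) were higher with PR-M without overlap, and the adipocyte marker Cidea (-0.25) was lower without overlap. The groups of the other markers in these lists overlapped. Of 4 markers of sympathetic nerve, Th, Dbh, Npy and Prph, none passed, with summed signals of 8.97 to 9.03 and 8.90 to 9.05. These sums rest mostly on Dbh (8.31 to 8.47), and Th lay below the array median on all 6 arrays. Their likeness therefore does not show equal nerve content. Of 2 measured Schwann cell markers Mbp differed by 0.88 (adjusted p 0.117) and Sox10 by 0.05, with summed signals of 7.88 to 8.07 and 7.52 to 7.65. The part of these cells in the differences of the receptor, the receptor kinase and the phosphodiesterases was not tested.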

How the data were processed

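Arrays of 6 heart samples, 3 in each PR-M group, were analysed from the log2 values that the authors deposited for each probe set. The submitters' processing notes name RMA and Partek 6.6 with no role or order, and give no settings. Sorted from low to high, any pair of arrays differed by no more than 0.155, so a change shared by all genes cannot be seen. The range of the values shows the log2 scale.

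After 64 control probe sets were left out, 45037 were tested with limma 3.58.1 in R 4.3.3 (lmFit, eBayes, two-sided, Benjamini-Hochberg over all probe sets, threshold 0.05), which had 4.48 prior and 4 residual degrees of freedom. SE is the moderated standard error. Pathway genes were read by the probe set with the highest mean, with the same statistics adjusted over 18193 genes. From each pathway list the genes past the threshold, or else the 2 with the lowest p, were named. Ddc's neighbours Th and Dbh and the marker Mbp were named after their values were seen. The platform annotation names 34945 probe sets with 1 symbol, 932 with several and 9160 with none, so unnamed probe sets can still belong to a member. Summed signals are sums of 2 to the power of the deposited value, given as log2. The members and lists were chosen with earlier results of these data known. The fit was tested on simulated data. Precision is limited by 3 arrays in each group. Alternatives were other scalings, filters, priors, weights, a random block, left-out arrays, another threshold and other ways to represent a gene, and statmod 1.5.0 served the random block.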

Additional observations from a re-analysis of the deposited data

How the results depend on the processing

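No member probe set passed under any of the 19 alternatives, in which the lowest adjusted p was 0.112. Over all probe sets 6 passed, and the count was 31 without dim probe sets, 37 with an intensity trend and robust prior, 2 with ordinary statistics, 43 with array weights, 53 at a threshold of 0.1, 12 with 1 probe set per gene and 1 with the mean of a gene's probe sets. With 1 array left out it ran from 0 (expressing replicate 3, non-expressing replicate 2 or 3) through 11 and 13 (expressing replicates 1 and 2) to 44 (non-expressing replicate 1). Of the pathway genes 1 passed, Ddc, with the trend, with array weights and at a threshold of 0.1, and 0 otherwise. A fit of 1 probe set per gene apart, chosen after seeing the data, called 4 genes and 0 members. Of 330 single values 315 kept their sign, none passed, and the 15 that turned belong to 5 probe sets with differences near 0 or dim signal. Several alternatives alter only the statistics, the filter, the threshold or the choice of probe set, and leave a difference as it was. The count of kept signs is therefore no measure of stability. Pde4b 1422473_at was -0.00084 with cyclic loess, -0.0048 with quantile scaling and -0.088 to 0.10 with 1 array left out. Pde4b 1446577_at was 0.023 with cyclic loess, 0.018 with quantile scaling, 0.12 with array weights and -0.19 to 0.17 with 1 array left out. Pde4b 1447718_at was 0.047 with array weights and -0.25 to 0.11 with 1 array left out. With 1 array left out Pde3a 1431913_a_at ran from -0.11 to 0.0094 and Pde5a 1458341_x_at from -0.030 to 0.051. The cause was not tested. The title prefix as a random block (correlation 0.117) called 5 probe sets and 0 members. No paired analysis was possible because the labels give no replicate numbers shared across the groups.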
